A study of Homo sapiens with 6 samples.

Results

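The AP-1 transcription factors described here were 9 genes listed by family name, a choice made with earlier results of these data known: FOS, FOSB, FOSL1 and FOSL2 of the FOS family, JUN, JUNB and JUND of the JUN family, and BATF and BATF3. All 9 were among the 22375 genes tested, and each was represented by 1 transcript cluster, the probe set of the array that stands for 1 gene. Total RNA came from PC3-ML, a metastatic derivative of the human prostate cancer cell line PC-3. Cells of both groups were grown in serum, and for 24 h they received either the DMSO vehicle or DMSO with 500 nM PD 0332991 (palbociclib), an inhibitor of the kinases CDK4 and CDK6. Each group had 3 Affymetrix arrays, labelled as replicates 1 to 3. Whether the replicates were independent cultures is not stated in the labels, and p-values therefore reflect only array-to-array spread, possibly technical. A single cell line at a single dose and time further limits the comparison.

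AP-1 factors are basic leucine zipper proteins that bind DNA as pairs. JUN proteins pair with each other or with FOS proteins, whereas FOS proteins need a partner such as a JUN protein, and BATF proteins lack a transactivation domain of their own and also pair with JUN proteins. FOS, FOSB, JUN and JUNB are known as immediate early genes, switched on within minutes of growth factor or stress signals through MAP kinases, and in invasive carcinoma cells FOSL1 is known as a long-lived member of the family. JUN is known to promote entry into the cell cycle, in part through cyclin D1, while JUNB is known mostly as a brake on proliferation and JUND as a factor of resting cells.

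Across the family, JUNB was the gene that rose with PD 0332991, by 1.38-fold, a call that was lost without any of 5 of the 6 arrays, and no member fell. The other 8 members did not pass the threshold, with log2 changes between -0.18 (JUN) and 0.22 (JUND). One call in 9 is 11.1%, against 11.3% of all genes tested in either direction, so the share called was no higher than that of the array as a whole. Genes were called at a limma adjusted p under 0.05 (Benjamini-Hochberg over all genes tested), and of all genes 5.57% were called higher and 5.74% lower. At an unadjusted p under 0.05 the members were JUNB, FOSL2 and BATF, 3 of 9, against 24.0% of all genes. The same 3 genes had no overlap between the DMSO and PD 0332991 arrays, or 33.3% of the members against 29.9% of all genes. In bulk RNA a smaller share of cells in one state and less RNA per cell cannot be told apart.

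Before the values, the promoters of the JUN genes are shown as a description of their sequences. RefSeq start sites on GRCh38.p14 gave a window for 7 of the 9 members. The 250 bases before the start are printed 5′ to 3′ on the gene's strand, and capitals mark matches to TGACGTCA (the cyclic AMP response element), its 6-base part TGACGT, the related element TGACATCA, or the AP-1 site TGANTCA, all searched on both strands.
JUN, chr1:58784048-58784297, minus strand: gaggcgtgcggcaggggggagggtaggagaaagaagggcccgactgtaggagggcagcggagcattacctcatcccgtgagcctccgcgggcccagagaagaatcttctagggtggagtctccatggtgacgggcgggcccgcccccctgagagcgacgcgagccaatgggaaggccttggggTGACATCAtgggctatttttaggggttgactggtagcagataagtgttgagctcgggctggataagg
JUNB, chr19:12791236-12791485, plus strand: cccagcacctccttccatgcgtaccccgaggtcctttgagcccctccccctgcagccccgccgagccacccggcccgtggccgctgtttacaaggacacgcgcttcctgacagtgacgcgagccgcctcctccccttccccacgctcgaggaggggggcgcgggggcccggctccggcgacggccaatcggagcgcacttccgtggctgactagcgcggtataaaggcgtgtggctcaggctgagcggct
JUND, chr19:18281623-18281872, minus strand: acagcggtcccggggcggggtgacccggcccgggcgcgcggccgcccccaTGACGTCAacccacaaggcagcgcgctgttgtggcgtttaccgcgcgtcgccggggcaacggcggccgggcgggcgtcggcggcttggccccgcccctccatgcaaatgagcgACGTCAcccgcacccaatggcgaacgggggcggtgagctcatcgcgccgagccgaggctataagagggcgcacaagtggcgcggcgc
The JUN window held 1 TGACATCA, 67 to 60 bases before the start, a motif found in 2.37% of all 35116 promoter windows of that length. The JUND window held 1 TGACGTCA, 200 to 193 bases before the start (1.65% of windows), and another TGACGT on the reverse strand at 87 to 82 bases. The JUNB window held none of these letters, which says nothing about which factors bind there.

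In the FOS family, the windows of FOS, FOSB and FOSL2 each held 1 TGACGT at a similar distance from the start, a motif present in 7.1% of all windows and overlapping TGACGTCA where that occurs. These stretches are shown with 12 bases on each side because they are what the 3 promoters share.
FOS, chr14:75278752-75278781, plus strand: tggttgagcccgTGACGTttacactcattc
FOSB, chr19:45467924-45467953, plus strand: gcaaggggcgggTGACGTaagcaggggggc
FOSL2, chr2:28392780-28392809, plus strand: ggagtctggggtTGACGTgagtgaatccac
The motif began 64, 60 and 66 bases before the start in FOS, FOSB and FOSL2. The AP-1 site TGANTCA, found in 6.57% of all windows, and the CArG box of serum response factor, found in 1.16%, were in none of the 7 windows. Bases farther from the start than these windows were not searched, so a site of either kind there would have been missed. The motif matches are descriptions of the letters and were not tied to the measured changes.

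The treatment was visible on every array: MKI67, the proliferation marker Ki-67, was 22.4-fold lower with PD 0332991 (limma adjusted p = 1.68e-07). Of 6 epithelial markers, the keratins KRT19 (log2 change 0.41, adjusted p = 0.00612), KRT8 (0.31, adjusted p = 0.0449) and KRT7 (0.30, adjusted p = 0.00936) rose with PD 0332991, while KRT18 (0.02), EPCAM (0.07) and CDH1 (0.08) were not called. Their DMSO means lay between 6.49 (CDH1) and 12.23 (KRT19) on the log2 scale. The prostate homeobox gene HOXB13 had a DMSO mean of 10.41, and KLK3, encoding prostate-specific antigen, one of 4.38. Of 12 markers of leukocytes, fibroblasts and endothelium, 10 were measured, with values between 3.46 and 4.82 on the 6 arrays, and none of these 10 was called. Their summed linear values, on the log2 scale, lay between 7.40 and 7.48 with DMSO and between 7.45 and 7.56 with PD 0332991, and the part of any of these markers in the results below was not tested. Medians over all genes tested lay between 5.33 and 5.37 on the 6 arrays.

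JUNB read 6.92, 6.67 and 6.55 on the DMSO arrays 1 to 3 and 7.20, 7.22 and 7.11 on the PD 0332991 arrays 1 to 3 (log2 expression). Every PD 0332991 array stood above every DMSO array, with a gap of 0.19 between the nearest arrays, and the DMSO arrays were the more spread. The mean went from 6.71 ± 0.189 to 7.18 ± 0.0611 (SD, n = 3 each), a log2 change of 0.46 with a 95% interval of 0.24 to 0.69 and a limma adjusted p of 0.0231. As a fold this interval ran from 1.18 to 1.61. Of all genes tested, 258 had a larger rise, and the median change of the genes called higher was 0.32. The size of the JUNB change varied little when single arrays were left out, between 0.38 and 0.57, but its call did not hold. The adjusted p was 0.0827 without DMSO 2, 0.0578 without DMSO 3, 0.0796 without PD 0332991 replicate 1, 0.0784 without PD 0332991 replicate 2 and 0.0514 without PD 0332991 replicate 3, and it was 0.00580 without DMSO 1, the highest of the DMSO arrays. It was 0.0975 when all 65535 transcript clusters were fitted and adjusted together, a fit in which the SE was 0.104 against 0.0949.

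**Figure D1:**
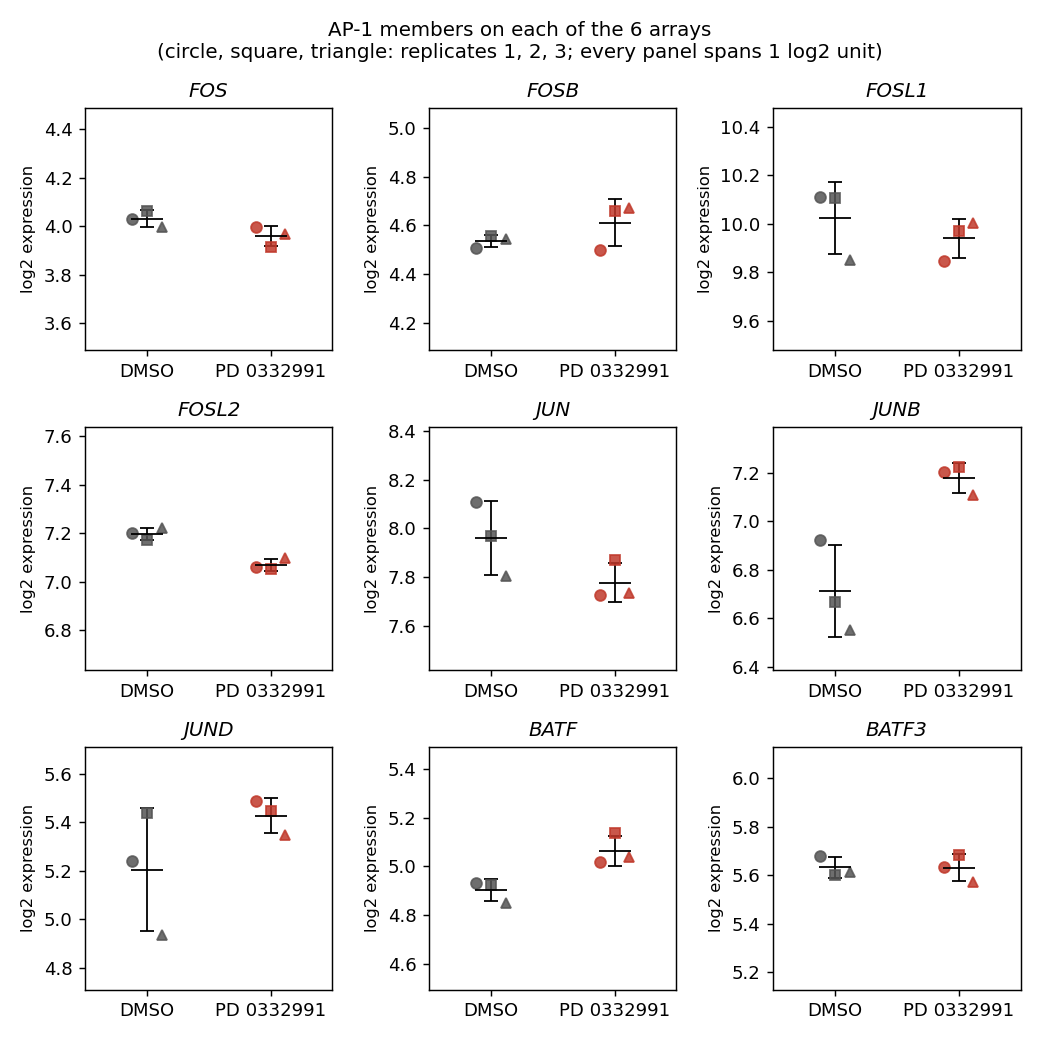
Log2 expression of the 9 AP-1 members on the 6 arrays, 1 panel per gene, with circles, squares and triangles for replicates 1, 2 and 3, horizontal bars for group means and whiskers for the SD (n = 3); each panel spans 1 log2 unit around its own values. Only in the panels of FOSL2, JUNB and BATF are the groups apart, and the JUNB groups are the farthest apart.

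**Figure D2:**
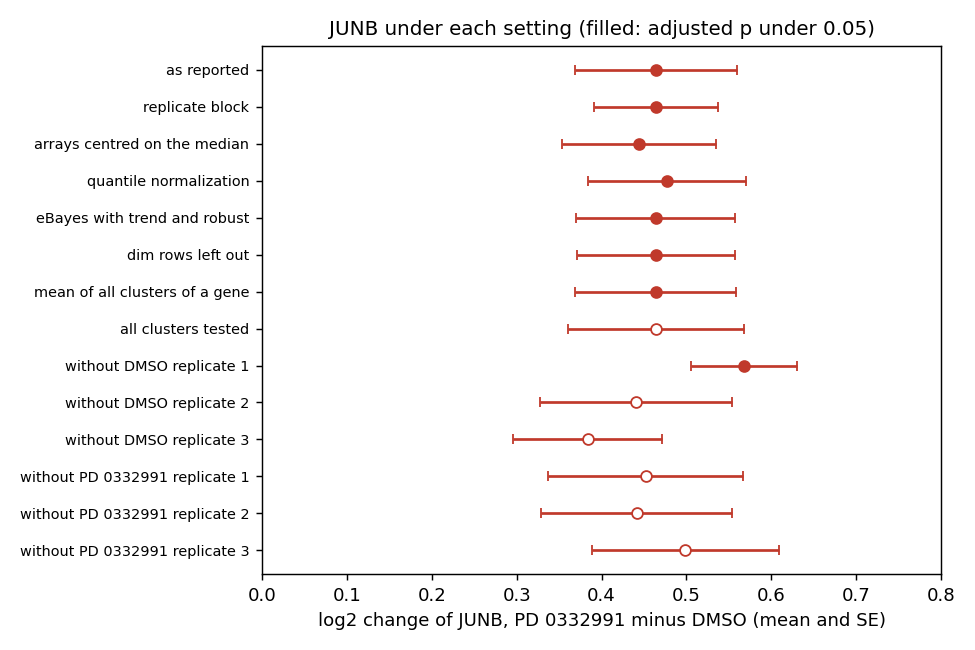
Log2 change of JUNB with its SE (x axis) as reported, in 7 alternative settings and with each of the 6 arrays left out, filled where the adjusted p was under 0.05. All 14 values lie between 0.38 and 0.57, while the call is lost in 6 of the 13 alternatives. Several settings alter only the SE or the rows tested and leave the value unchanged by construction.

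JUN, the founding member of its family, moved the other way without passing the threshold. It read 8.11, 7.97 and 7.80 on the DMSO arrays and 7.73, 7.87 and 7.73 on the PD 0332991 arrays. The highest PD 0332991 value exceeded the lowest DMSO value, so the groups overlapped. The log2 change was -0.18 (95% interval -0.38 to 0.02, adjusted p = 0.247), an interval that reaches 1.30-fold lower and 1.01-fold higher. The change was -0.11 without DMSO 1, -0.26 without DMSO 3 and between these with any other array left out. JUND, the member known for steady expression in resting cells, read 5.24, 5.44 and 4.93 with DMSO and 5.49, 5.45 and 5.35 with PD 0332991. The second DMSO array lay within the PD 0332991 range and the third lay far under it. JUND had the widest interval of the family, -0.07 to 0.51 around a change of 0.22 (adjusted p = 0.341), and the change was 0.09 without DMSO 3 and 0.34 without DMSO 2.

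Set against each other on the same arrays, JUN and JUNB separated by more than either gene's spread. The value of JUN minus JUNB was 1.19, 1.30 and 1.25 on the DMSO arrays and 0.53, 0.65 and 0.63 on the PD 0332991 arrays. The levels of different probe sets are not comparable, so only the shift of this difference between the groups was read. Whether both probe sets respond equally to a change was not tested. The 2 groups of the difference did not overlap. The shift was -0.65 on the log2 scale (95% interval -0.79 to -0.51, two-sided exact permutation p = 0.1, the smallest that 3 against 3 allows). Both genes were highest on DMSO 1 and lowest on DMSO 3, and this spread largely cancelled in their difference. JUN minus JUND shifted by -0.41 (95% interval -0.76 to -0.06, exact permutation p = 0.1) and JUNB minus JUND by 0.24 (-0.16 to 0.64, exact permutation p = 0.1), the latter interval including 0. Without DMSO 2 the JUNB minus JUND shift was 0.10, and without any other array it was 0.23 to 0.33. All 36 pairs of members were compared in this way, and JUN minus JUNB had the largest shift among them. The smallest possible p was reached by 19 pairs, and adjusted over the 36 pairs it was 0.189, so no pair could pass the threshold by this test. Intervals, which were not adjusted for the number of pairs, left out 0 in 13 pairs, 6 of the 8 with JUNB and 7 of the 28 without it. The pairs with JUNB all share its values and are not separate results.

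**Figure D3:**
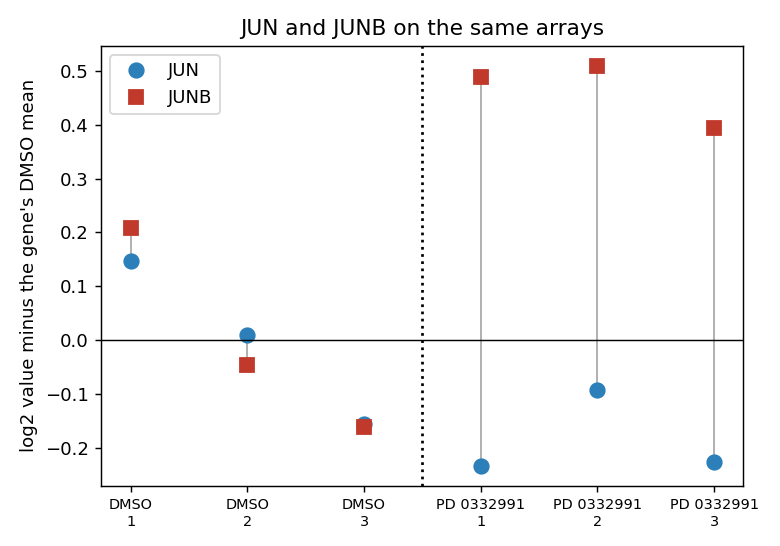
Log2 value of JUN (circles) and JUNB (squares) on each array minus that gene's mean over the DMSO arrays, with a grey line joining both genes of an array. Both genes are above their DMSO mean on DMSO 1 and under it on DMSO 3, with JUN at 0.0091 and JUNB at -0.05 on DMSO 2, while on the 3 PD 0332991 arrays JUNB lies 0.39 to 0.51 above its DMSO mean and JUN lies 0.09 to 0.23 under its own.

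In the FOS family no member passed the threshold. FOSL1, encoding FRA-1, read 10.11, 10.11 and 9.85 with DMSO and 9.85, 9.97 and 10.00 with PD 0332991, and the PD 0332991 values lay almost wholly inside the DMSO range. Its change was -0.08 (95% interval -0.28 to 0.11, adjusted p = 0.633), which leaves room for a level up to 1.21-fold lower or 1.08-fold higher, and with single arrays left out it ran from -0.17 to -0.04. FOSL2, encoding FRA-2, read 7.20, 7.17 and 7.22 with DMSO and 7.06, 7.05 and 7.10 with PD 0332991. These groups did not overlap and both were tight, with SDs of 0.0241 and 0.0253. The change of FOSL2 was -0.13 (95% interval -0.22 to -0.03), and with an adjusted p of 0.1002 it was not called. It stayed between -0.15 and -0.11 in every alternative tried and with any single array left out, and was called in none of them.

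FOS and FOSB gave low signals. FOS read 4.03, 4.06 and 3.996 with DMSO and 3.998, 3.91 and 3.97 with PD 0332991. FOSB read 4.51, 4.55 and 4.55 with DMSO and 4.499, 4.66 and 4.67 with PD 0332991. All values of both genes lay within the range of the 10 markers of other cell types given above, so a level above background could not be told for either gene, and a small change could have gone unseen. The changes were -0.07 for FOS (95% interval -0.18 to 0.03, adjusted p = 0.413) and 0.07 for FOSB (-0.06 to 0.21, adjusted p = 0.517), with overlapping groups in both genes.

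The BATF genes, best known from lymphoid and dendritic cells, were also not called. BATF read 4.93, 4.92 and 4.85 with DMSO and 5.02, 5.14 and 5.04 with PD 0332991, without overlap between the groups. Its change was 0.16 (95% interval 0.04 to 0.28, adjusted p = 0.0983), and its values lay close above those of the markers of other cell types. BATF3 read 5.68, 5.60 and 5.62 with DMSO and 5.63, 5.68 and 5.57 with PD 0332991, which is the same range in both groups. The change of BATF3 was -0.0025 (95% interval -0.12 to 0.11, adjusted p = 0.985), so that a level more than 1.08-fold higher or lower lay outside the interval.

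**Figure D4:**
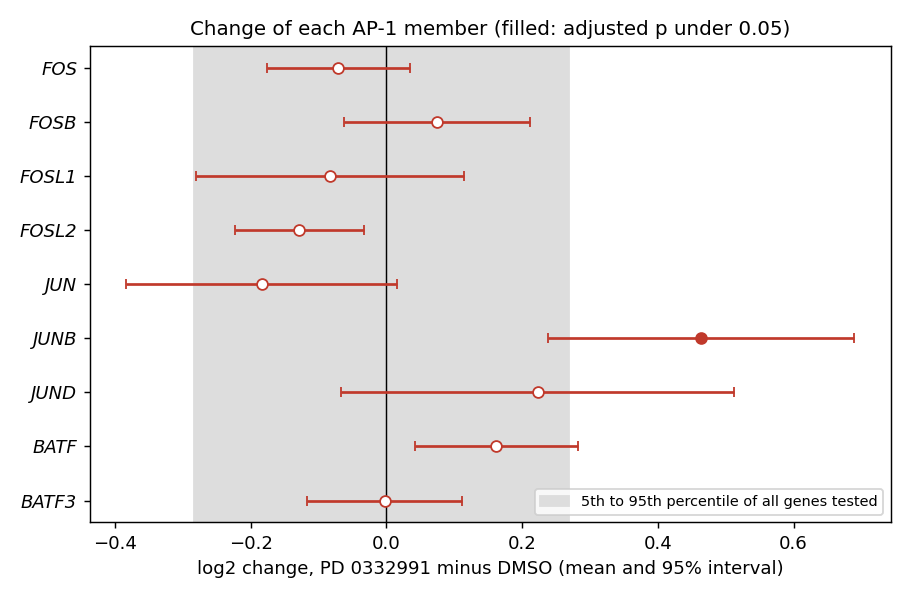
Log2 change of each AP-1 member with its 95% interval from limma (x axis), with the 5th to 95th percentile of the changes of all genes tested, -0.28 to 0.27, in grey. JUNB, the filled point, is the member outside the grey band, while JUN, JUND and BATF lie inside it with intervals that reach past it.

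The spread among the members was not even across arrays. On DMSO 3, 6 of the 9 members had their lowest DMSO value (FOS, FOSL1, JUN, JUNB, JUND and BATF), while 34.1% of all genes had theirs there. The median size of the change, regardless of sign, was 0.13 among the members and 0.08 among all genes, and 4 members had a positive and 5 a negative change, against 58.0% of all genes with a positive one.

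By the distance between profiles over the 6 arrays, the genes closest to JUNB were KIAA0754, HPGD and OLFM2. The root mean square difference of the centred log2 values was 0.0550 for KIAA0754, 0.0610 for HPGD, which encodes a prostaglandin-degrading enzyme, and 0.0642 for OLFM2. KIAA0754 read 11.13, 10.98 and 10.82 with DMSO and 11.57, 11.51 and 11.47 with PD 0332991, with the DMSO arrays in the same order as for JUNB. The genes named here were picked from all genes tested for closeness to JUNB on these same arrays. A like order and a like change therefore largely follow from that choice. Their log2 changes were 0.54 (adjusted p = 0.00657), 0.37 (adjusted p = 0.0740) and 0.45 (adjusted p = 0.0213).

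Beyond the 9 members, 5 lists of genes around AP-1 were read for their counts, 114 different genes in all. Of these, 10 rose and 11 fell, 18.4% against 11.3% of all genes tested. The share of all genes includes dim genes, and shares were not matched for signal level here or in the lists below. No test of a list was run, and the lists were chosen with earlier results of these data known. Among 19 basic leucine zipper relatives and partners (ATF, MAF, NFE2 and BACH genes, JDP2 and BATF2), 1 rose and none fell, 5.26% called against 11.3% of all genes, with a median log2 change of 0.03 against 0.02 for all genes. The gene that rose was NFE2L3, a cap'n'collar factor, with a change of 0.19 (adjusted p = 0.0478), and its adjusted p lay between 0.0727 and 0.136 whichever array was left out. ATF3, a stress-induced partner of JUN proteins, read 4.37, 4.42 and 4.31 with DMSO and 4.34, 4.40 and 4.58 with PD 0332991, a change of 0.07 (adjusted p = 0.612). These values lay within the range of the markers of other cell types given above, so a small change could have gone unseen.

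Upstream of AP-1, 3 of 26 kinases and serum response factors fell and none rose (median -0.0040). That is 11.5% called against 11.3% of all genes in either direction. All of these calls were lower, against 5.74% of all genes called lower. RPS6KA5 encodes MSK1, a kinase that acts on chromatin and CREB downstream of ERK and p38. It read 7.47, 7.54 and 7.54 with DMSO and 6.85, 6.86 and 7.08 with PD 0332991, and was 1.503-fold lower (log2 change -0.59 ± 0.0705 SE, adjusted p = 0.00273). CREB1, which binds the cyclic AMP response element, read 8.54, 8.52 and 8.47 with DMSO and 8.10, 8.13 and 8.17 with PD 0332991, and was 1.30-fold lower (adjusted p = 0.00229). Both groups were apart in both genes, and both calls held with any single array left out. ARAF, a RAF kinase, had a change of -0.21 (adjusted p = 0.0223), and its call held without DMSO 3 and was lost without each of the other 5 arrays (adjusted p up to 0.0852). Changes of MAPK8, encoding the JUN kinase JNK1, and of SRF, the serum response factor, were -0.05 (95% interval -0.15 to 0.05, adjusted p = 0.563) and -0.01 (-0.16 to 0.14, adjusted p = 0.948).

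Factors of AP-1 mRNA and protein turnover numbered 13, of which 1 rose and 2 fell (median -0.02), 23.1% called against 11.3% of all genes. FBXW7, the ubiquitin ligase subunit that recognises phosphorylated JUN among other proteins, read 7.22, 7.22 and 7.32 with DMSO and 7.51, 7.58 and 7.57 with PD 0332991, 1.23-fold higher (adjusted p = 0.00939). HNRNPD, encoding the AU-rich element binding protein AUF1, was 1.44-fold lower (log2 change -0.53 ± 0.0730 SE, adjusted p = 0.00478), and ELAVL1, encoding the stabilising protein HuR, 1.19-fold lower (-0.25 ± 0.0416 SE, adjusted p = 0.0111). Each of these 3 calls held with any single array left out. Those of FBXW7 and ELAVL1 were lost when all clusters were fitted and adjusted together (limma adjusted p = 0.0702 and 0.0931), a fit with larger SEs (0.0601 and 0.0543).

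Of 30 immediate early genes measured other than the members, 3 rose and 3 fell, 20% called against 11.3% of all genes, with a median change of -0.02. CCN1 and CCN2, matricellular proteins, rose, CCN1 by 0.27 ± 0.0431 SE (adjusted p = 0.00933) and CCN2 by 0.50 ± 0.102 SE (adjusted p = 0.0227). KLF6 and the nuclear receptor gene NR4A2 fell by 0.20 (adjusted p = 0.0239) and by 0.19 (adjusted p = 0.0270) on the log2 scale. The call of CCN1 held with any array left out. That of CCN2 was lost without DMSO 1, DMSO 2 or DMSO 3 (adjusted p 0.0680, 0.0626 and 0.0799), that of KLF6 without any of the 6 arrays (up to 0.0822), and that of NR4A2 without any but DMSO 1 (up to 0.0985). The number that fell was 1 without DMSO 1, 2 without DMSO 3 and 0 without any of the other 4 arrays, and the number that rose was 1 without DMSO 2 or DMSO 3. EGR1, the growth factor response gene most often induced beside FOS, read 3.90, 4.01 and 3.95 with DMSO and 3.89, 3.86 and 3.98 with PD 0332991, a low signal like that of FOS. MYC read 10.81, 10.85 and 10.73 with DMSO and 10.79, 10.86 and 10.94 with PD 0332991, and its groups overlapped (change 0.07, adjusted p = 0.553).

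Of 31 genes known as AP-1 targets, 5 rose and 3 fell (median 0.0072, against 0.02 for all genes). That is 16.1% called higher and 9.68% lower, against 5.57% and 5.74% of all genes. MMP13, the collagenase whose promoter is a classical AP-1 target, had the largest change of the list. It read 10.85, 10.72 and 10.64 with DMSO and 11.82, 11.75 and 11.97 with PD 0332991, a rise of 1.11 ± 0.0764 SE on the log2 scale (adjusted p = 0.000201). The cytokine gene IL1B read 12.97, 12.96 and 12.92 with DMSO and 13.58, 13.61 and 13.62 with PD 0332991, 1.57-fold higher (adjusted p = 0.000108). The calls of MMP13, IL1B and PLAUR held with any single array left out. PLAUR, the urokinase receptor, went in the opposite direction, from 9.64, 9.66 and 9.62 to 9.16, 9.16 and 9.11, and was 1.41-fold lower (adjusted p = 0.000461). Its ligand PLAU had a change of 0.01 (95% interval -0.12 to 0.14, adjusted p = 0.918).

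The other targets described here were less steady. MMP1, the interstitial collagenase, read 6.65, 6.77 and 6.79 with DMSO and 7.24, 6.997 and 7.28 with PD 0332991, 1.36-fold higher (adjusted p = 0.0183). Its call was lost with any array left out other than DMSO 3 and PD 0332991 replicate 2, with adjusted p-values up to 0.0684. CCND1, encoding cyclin D1, read 14.48, 14.64 and 14.51 with DMSO and 14.88, 14.85 and 15.03 with PD 0332991 (adjusted p = 0.0138), and its call was lost without DMSO 1 or DMSO 3. Of the target list, 3 genes rose without DMSO 2 or PD 0332991 replicate 1, and 1 fell without DMSO 2, PD 0332991 replicate 1 or PD 0332991 replicate 2.

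**Figure D5:**
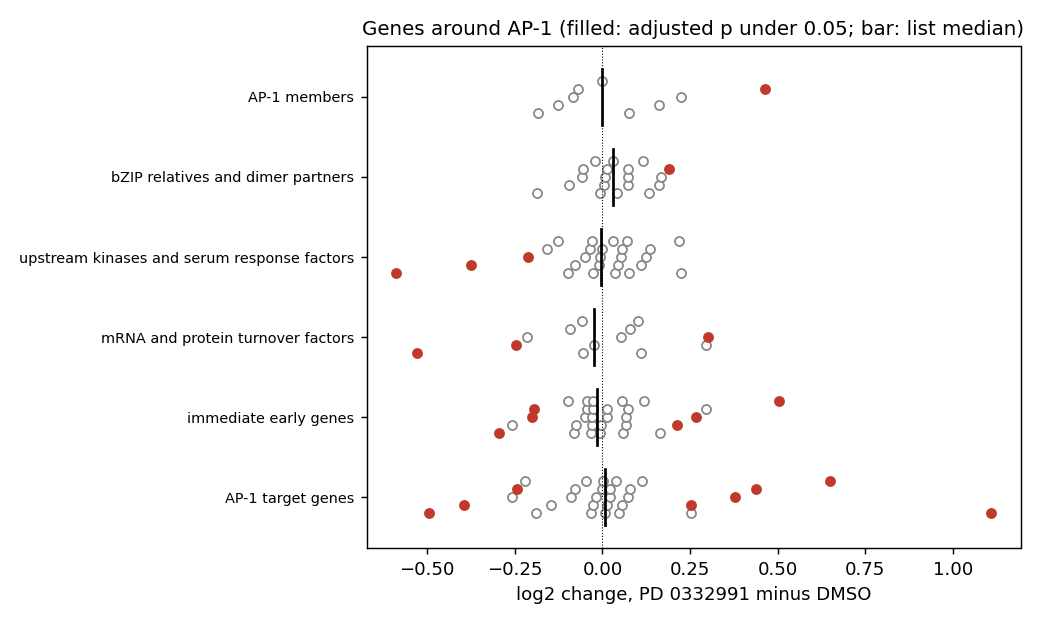
Log2 change of each gene (x axis) for the 9 AP-1 members and the 5 related lists, filled where the adjusted p was under 0.05, with a bar at each median. All medians lie near 0, between -0.02 and 0.03, and the largest single change is the MMP13 rise of 1.11.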

How the data were processed

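Total RNA of 6 PC3-ML samples was measured on Affymetrix arrays. The deposited table holds, for each transcript cluster and array, a value that the authors gave on what its range (2.04 to 19.93) shows to be a log scale, read here as log2 since no base is stated. The submitters' processing notes name Affymetrix Expression Console; background correction, normalization and summarisation are not given in the sources used here. Per the labels' protocols, cDNA was amplified with a NuGEN system, while another label names an Affymetrix kit.

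Of 65535 clusters, 22685 named 1 gene; 1385 with several symbols and 41465 unnamed here were left out. Symbols were updated through Entrez identifiers (20487 matched), and the brightest cluster was kept per gene, leaving 22375 genes with no minimum level. The comparison used R 4.3.3 and limma 3.58.1 (lmFit, eBayes, two-sided, Benjamini-Hochberg over all genes, threshold 0.05) without further normalization. Intervals are at 95%; the number of arrays limits their precision. The members and lists were chosen with earlier results of these data known. Named genes were all members, the 4 called genes with the smallest p in each list (all where 5 or fewer were called), 10 landmark genes, MKI67, and the 3 profiles closest to each called member. The step was tested on simulated data: for this comparison over 22375 genes, 7 of 50 genes changed by 0.25 were recovered, 44 of 50 at 0.5 and 48 of 50 at 1. Whether replicate numbers pair the arrays is not stated in the labels, and the arrays were treated as unpaired. Promoter windows came from RefSeq (GRCh38.p14), and the arrays' build is not given in the sources used here.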

Additional observations from a re-analysis of the deposited data

How the results depend on the processing

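The change of JUNB was called in 7 of 13 alternatives. It kept its direction in all 13, but leaving out 1 array could not reverse it because the groups did not overlap. Most other settings altered only the SE or the rows tested and left the change at 0.46. With all clusters fitted and adjusted together 0 members were called higher, and with 1 array left out 0 to 1. The count of members that fell was 0 in every alternative. Over all genes, 2531 calls became 1602 to 1857 with 1 array left out. With all 65535 clusters fitted and adjusted together, 1482 clusters were called. That count includes clusters outside the 22375 genes, so it is not a count of the same rows as 2531. Same-numbered arrays had deviations that correlated at 0.02, -0.0065 and 0.04 over genes, which with 3 arrays per group cannot settle whether the numbers pair them. The replicate number as a block left 1740 calls and JUNB at a limma adjusted p of 0.0294. It left 0 relatives higher, and 1 immediate early gene higher and 0 lower, against 1, 3 and 3 without the block. Relatives called higher were 0 with arrays centred on the median, with all clusters fitted and adjusted together, and with any 1 array left out. They were 2 with quantile normalization, with a trended robust prior or without dim rows. Upstream genes called higher were 1 with quantile normalization and 2 without dim rows, against 0. Turnover factors called higher were 2 with quantile normalization and 1 to 2 with 1 array left out. With all clusters fitted and adjusted together, 0 turnover factors were higher and 1 lower. In that setting 0 immediate early genes were higher and 0 lower, and 2 targets were higher and 1 lower. With 1 array left out, 1 to 3 immediate early genes were higher and 0 to 2 lower, and 3 to 4 targets were higher and 1 to 4 lower. Settings with 1 array left out have fewer arrays, and fitting all clusters adjusts over more rows. Their counts of calls are therefore not on equal terms with those reported. Fitting all clusters also changed the SE, for JUNB from 0.0949 to 0.104. The cause of the shifts was not tested. Alternatives for the 36 differences between members moved them by less than the SD of that difference between arrays of a group, which can still be over 1.5 times a small difference. None of the 413 single-gene alternatives reversed a called direction, while 55 lost a call. Either outcome was possible only for genes called as reported, and many of the 413 were of genes not called. Where the groups did not overlap, leaving out 1 array could not reverse a direction. Low signal limits what FOS, FOSB, ATF3 and EGR1 can show.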

Other observations

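ZFP36, whose protein tristetraprolin destabilises AU-rich messages such as FOS, was chosen here after its values were seen. It read 4.83, 4.61 and 4.52 with DMSO and 4.91, 4.87 and 5.07 with PD 0332991, so that, like JUNB, it was highest on DMSO 1 among the DMSO arrays, with no overlap between the groups. Its log2 change was 0.30 (95% interval 0.07 to 0.52) and was not called (limma adjusted p = 0.101). IER3, also chosen after its values were seen, read 9.87, 9.76 and 9.28 with DMSO and 9.40, 9.29 and 9.44 with PD 0332991. DMSO 3 lay under every PD 0332991 array and the other DMSO arrays above every one (change -0.26, adjusted p = 0.362).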
